A study of Mus musculus with 8 samples.

Results

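The Hedgehog receptors, co-receptors and Gli factors were followed across 3 mouse cell types on a whole-genome oligonucleotide array that reads messenger RNA. The 9 genes were Ptch1, Hhip, Smo, Cdon, Boc, Gas1, Gli1, Gli2 and Gli3. All probe sets annotated to 1 of these genes and to no other gene were taken, which gave 24 of the 45037 probe sets that are not controls, and 9 of the 18193 genes measured. The levels below are log2(intensity + 16) after quantile normalization, with each gene read from its brightest probe set, and no level is set against that of another gene.

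MEF were primary mouse embryonic fibroblasts (2 arrays) grown in medium with 10% fetal bovine serum. NPC were neural precursor cells (3 arrays) made from ES cells by 4 days as embryoid bodies and 5 to 7 days of selection in ITSFn medium, and then kept in growth factors that the labels write as FGF2 and EGF2. ES cells (3 arrays), which are pluripotent, belonged to the V6.5 line and were grown in 15% fetal calf serum and leukaemia inhibitory factor, with irradiated feeder fibroblasts at first and then on gelatin without them. All were wild type, none is said to have been given a Hedgehog ligand, agonist or inhibitor, and no label tells whether replicate arrays stem from separate cultures. The p-values therefore speak of the spread from array to array, part or all of which may be technical.

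Hedgehog ligands are secreted proteins that bind Patched1 (Ptch1) on the receiving cell. Without ligand, Patched1 holds the membrane protein Smoothened (Smo) inactive, and with ligand Smoothened reaches the primary cilium and the Gli zinc finger factors act as activators instead of being cut to repressors. Ptch1, Hhip and Gli1 are themselves target genes of the pathway in many tissues, and Hedgehog signals pattern the ventral neural tube and the limb bud.

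The bases just before the annotated start are shown for Smo, Gas1 and Gli3, the 3 members whose window in the RefSeq promoter table (GRCm38.p6) lies at the outermost start of the gene. Each of these genes was higher in MEF than in ES cells. Whether the bases shown control their transcripts, or the annotated start is used in these cells, was not tested. The 250 bases run 5′ to 3′ on the strand of the gene, and capitals mark each CG, the dinucleotide that DNA methylation acts on.

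Smo, chr6:29735247-29735496, plus strand: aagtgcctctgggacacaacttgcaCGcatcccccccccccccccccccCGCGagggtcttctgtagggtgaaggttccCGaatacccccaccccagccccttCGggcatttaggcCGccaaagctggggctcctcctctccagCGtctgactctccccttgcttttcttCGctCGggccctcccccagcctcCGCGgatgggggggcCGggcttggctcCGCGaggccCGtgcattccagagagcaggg
Gas1, chr13:60177536-60177785, minus strand: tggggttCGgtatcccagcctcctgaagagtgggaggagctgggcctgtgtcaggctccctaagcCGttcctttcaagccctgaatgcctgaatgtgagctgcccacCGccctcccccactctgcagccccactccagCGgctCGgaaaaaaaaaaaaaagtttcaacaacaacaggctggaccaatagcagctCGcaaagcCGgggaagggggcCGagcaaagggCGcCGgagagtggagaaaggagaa
Gli3, chr13:15463473-15463722, plus strand: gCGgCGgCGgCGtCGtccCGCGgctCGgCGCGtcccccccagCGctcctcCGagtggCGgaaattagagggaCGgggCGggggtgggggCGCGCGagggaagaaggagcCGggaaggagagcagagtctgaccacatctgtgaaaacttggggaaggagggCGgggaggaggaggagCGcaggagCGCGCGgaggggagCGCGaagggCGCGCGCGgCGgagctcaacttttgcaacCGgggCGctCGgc

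Gli3 had 34 CG in its 250 bases, Smo 15 and Gas1 10, against a median of 6 over the 32851 windows of the table. At least 34 CG were found in 3.53% of windows, at least 15 in 27.3% and at least 10 in 37.8%. Of the 9 members, 7 had a window, and Ptch1 had 41 CG, Hhip 28, Gli2 22 and Cdon 1, in windows that lie at an inner start. The Gli consensus GACCACCCA, searched on both strands over all 300 bases of each window (250 before and 50 after the start), was in 0 of the 7 and in 0.253% of all windows. These counts describe the letters alone, since the arrays measured neither methylation nor binding.

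The arrays fell into their 3 cell types. Correlations of log2 values with arrays of the same group were 0.967 or higher, and those with other groups 0.871 or lower. The lowest within a group was between NPC 1 and NPC 2, while ES arrays correlated at 0.986 or higher and MEF arrays at 0.990. The deposited trimmed mean intensity was 232 on both MEF arrays and 111 to 153 on the others. Fibroblast markers summed to intensities of 29697 to 30330 on MEF arrays, against 134 to 236 in NPC and 272 to 280 in ES cells. The ES markers summed to at most 69.9 in MEF and 76.1 in NPC, against 28689 to 29286 in ES cells. The NPC markers summed to 765 to 771 in MEF, 11455 to 17704 in NPC and 536 to 552 in ES cells. Among them, only Msi1 was lower in NPC than in ES cells (-0.52 on the log2 scale).

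Most of the 9 genes differed between the cell types, and they did not move as a block. A gene was called at a limma adjusted p under 0.05 with a log2 difference of at least 1. In NPC against ES cells 7 of 9 were called, 5 higher and 2 lower, where 22.9% of all genes were called (10% higher and 12.9% lower). In MEF against ES cells 7 of 9 were called, 4 higher and 3 lower, with 25% of all genes called (12.2% higher and 12.8% lower). In MEF against NPC 5 of 9 were called, 1 higher and 4 lower, with 18.5% of all genes called (10.5% higher and 7.95% lower). Arrays of the compared groups did not overlap for 9, 7 and 8 of the 9 genes in these comparisons, and for 52.8%, 67.8% and 58% of all genes. The median log2 difference of the 9 was 1.14, -0.06 and -0.35, against -0.05, -0.04 and -0.01 over all genes. The comparisons share arrays, so the counts are not independent of each other.

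**Figure D1:**
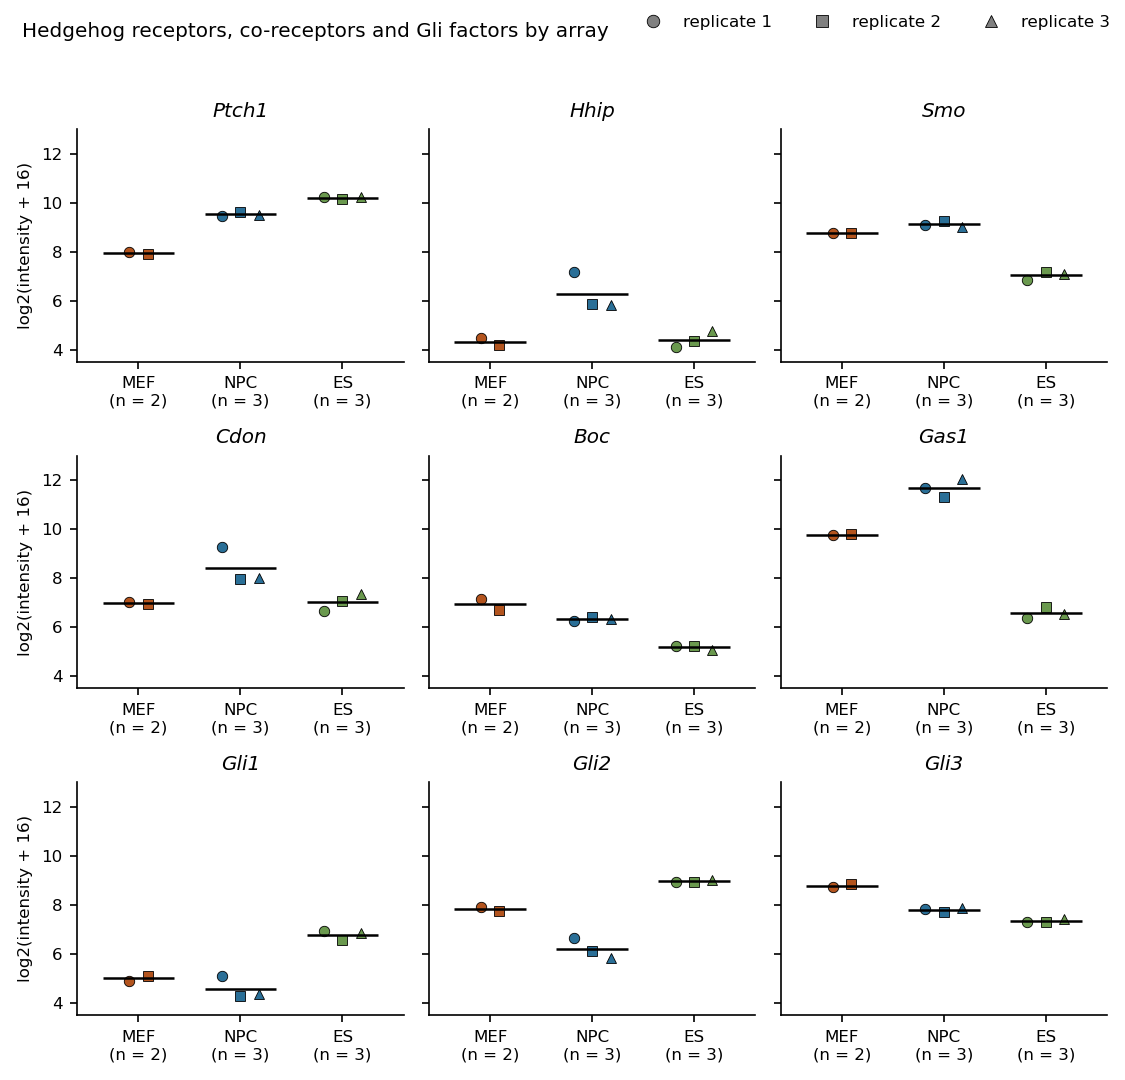
Level of each of the 9 genes, as quantile normalized log2(intensity + 16), on each MEF, NPC and ES array, with 1 point per array, its shape giving the replicate number, and a line at the group mean. Gas1 lies at 11.33 to 12.04 in NPC and 6.39 to 6.81 in ES cells, and Gli2 at 5.82 to 6.65 in NPC and 8.92 to 9.01 in ES cells.

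Ptch1, the Hedgehog receptor and a brake on Smoothened, was highest in ES cells and lowest in MEF. It was at 7.96 and 7.91 on the MEF arrays, 9.45, 9.62 and 9.49 on the NPC arrays and 10.23, 10.17 and 10.22 on the ES arrays. No array of a group overlapped with another group. Ptch1 was 4.83-fold lower in MEF than in ES cells (log2 difference -2.27 ± 0.08 SE, limma adjusted p = 1.19e-07) and 3-fold lower in MEF than in NPC (-1.59 ± 0.08, limma adjusted p = 1.04e-06). The second of these calls ended at the deposited scaling, that is without any normalization between arrays (-0.68). Between NPC and ES cells the difference of -0.69 ± 0.08 (limma adjusted p = 6.42e-05) was under the minimum of 1. In bulk RNA, fewer cells with a transcript and less transcript in each cell cannot be told apart, here and for the genes that follow.

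The 3 probe sets of Ptch1 did not say the same of NPC. The dimmer 1439663_at was at 4.54 and 4.58 in MEF, 6.35, 6.17 and 6.05 in NPC and 6.07, 5.84 and 5.33 in ES cells. It too was lower in MEF than in ES cells (-1.18 ± 0.24) and than in NPC (-1.62 ± 0.24), but its NPC value lay 0.44 ± 0.21 above ES cells, on the other side of zero from the brightest probe set. The third, 1450824_at, was not called in any comparison.

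Hhip, a membrane protein that binds Hedgehog ligands and keeps them from the receptor, was higher in NPC than in either other cell type. It was at 4.45 and 4.19 on the MEF arrays, 7.16, 5.87 and 5.83 on the NPC arrays and 4.11, 4.34 and 4.75 on the ES arrays. All NPC arrays lay above all others, while MEF and ES arrays overlapped. The MEF and ES values ranked between percentile 7.8 and 34.9 of the probe sets on their arrays, close to the bottom of the signal range, where no detection call was at hand. Hhip was 3.7-fold higher in NPC than in ES cells (1.89 ± 0.35, limma adjusted p = 0.00161) and 3.9-fold lower in MEF than in NPC (-1.96 ± 0.39, limma adjusted p = 0.00333). MEF and ES cells differed by -0.07 ± 0.39 (limma adjusted p = 0.906). The size of both differences was set largely by the pseudocount, since MEF and ES values lay near the least value of the scale. A pseudocount of 1 in place of 16 gave 3.58 and -3.69, and one of 64 gave 0.90 and -0.92, which ended both calls.

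All 4 probe sets of Hhip were called higher in NPC than in ES cells, by 1.34 to 1.89 on the log2 scale, and 2 of 4 were called lower in MEF than in NPC. NPC 1 was the brightest NPC array on each of the 4. It lay above the mean of NPC 2 and NPC 3 by 1.16 to 1.57 on the log2 scale, and the gap of the brightest probe set, 1.31, was reached by 2.35% of all genes. Without NPC 1 the difference of NPC from ES cells was 1.45 and still called (limma adjusted p = 0.00021).

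Smo, which passes the signal on once Patched1 is bound, was higher in NPC and in MEF than in ES cells. It was at 8.75 and 8.77 on the MEF arrays, 9.08, 9.24 and 9.0 on the NPC arrays and 6.84, 7.17 and 7.10 on the ES arrays. The ES arrays lay below all others. Smo was 3.3-fold higher in MEF than in ES cells (1.72 ± 0.13, limma adjusted p = 5.08e-06) and 4.21-fold higher in NPC than in ES cells (2.07 ± 0.11, limma adjusted p = 7.21e-07). The difference of MEF from NPC was not called (-0.35 ± 0.13, limma adjusted p = 0.0556), and its sign turned without normalization (0.57) and with median centring (0.23). A further probe set, 1427048_at, gave 1.78 ± 0.11 for MEF and 2.04 ± 0.10 for NPC against ES cells. The third, 1442215_at, stayed between 4.03 and 4.34 on all 8 arrays, near the least value the scale allows.

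The co-receptors Cdon, Boc and Gas1 bind Hedgehog ligands at the cell surface together with Patched1. Gas1, a protein held in the membrane by a lipid anchor, had the greatest difference from ES cells of the 9 genes in NPC and in MEF. It was at 9.77 and 9.79 on the MEF arrays, 11.67, 11.33 and 12.04 on the NPC arrays and 6.39, 6.81 and 6.54 on the ES arrays, so the 3 groups did not overlap. Gas1 was 34.3-fold higher in NPC than in ES cells (5.10 ± 0.17, limma adjusted p = 4.81e-08) and 9.2-fold higher in MEF than in ES cells (3.20 ± 0.20, limma adjusted p = 1.67e-06). It was 3.73-fold lower in MEF than in NPC (-1.90 ± 0.20, limma adjusted p = 6.31e-05). Probe set 1448494_at gave 4.35 ± 0.12, 2.37 ± 0.13 and -1.98 ± 0.13 for these differences. On the dimmest, 1456322_at, only NPC against ES cells was called (1.12 ± 0.21).

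Boc, an immunoglobulin superfamily protein related to Cdon, was higher in NPC and in MEF. It was at 7.15 and 6.72 on the MEF arrays, 6.26, 6.41 and 6.34 on the NPC arrays and 5.25, 5.25 and 5.08 on the ES arrays. Every MEF and NPC array was above every ES array. Boc was 3.34-fold higher in MEF than in ES cells (1.74 ± 0.18, limma adjusted p = 4.57e-05) and 2.2-fold higher in NPC than in ES cells (1.14 ± 0.16, limma adjusted p = 0.000323). The NPC call ended when its probe sets were averaged (0.90) and at a pseudocount of 64 (0.61). MEF lay above NPC by 0.60 ± 0.18 (limma adjusted p = 0.0271), under the minimum of 1, and by 1.31 at the deposited scaling. Probe set 1426869_at gave 1.82 ± 0.23 for MEF and 1.56 ± 0.20 for NPC against ES cells, and 1427517_at was not called in any comparison.

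Cdon was higher in NPC, with NPC 1 well above the other NPC arrays. It was at 7.01 and 6.93 on the MEF arrays, 9.28, 7.98 and 8.0 on the NPC arrays and 6.65, 7.08 and 7.37 on the ES arrays. The NPC arrays were above all others, and the MEF arrays lay within the range of the ES arrays. Cdon was 2.62-fold higher in NPC than in ES cells (1.39 ± 0.34, limma adjusted p = 0.00749) and 2.73-fold lower in MEF than in NPC (-1.45 ± 0.38, limma adjusted p = 0.0134). Without NPC 1 the first difference was 0.96, under the minimum of 1 (limma adjusted p = 0.00124), and the second -1.02. The second call ended with median centring (-0.97), at the deposited scaling (-0.62), and without either MEF array (limma adjusted p = 0.069 and 0.0819). The other probe set, 1421452_at, was at 4.11 to 5.00 on all 8 arrays and was not called. Averaged over the probe sets, neither difference was called (0.57 and -0.69). Gli1 and Gli2, described next, also had their highest NPC value on NPC 1, by 0.76 and 0.69 over the mean of NPC 2 and NPC 3. These gaps were reached by 9.08% and 11.7% of all genes. The other 5 genes had a gap of at most 0.11 in size on their brightest probe sets. Some of their dimmer probe sets had larger gaps in either direction, such as 0.59 on Boc 1427517_at and -0.51 on Gli3 1455154_at.

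**Figure D2:**
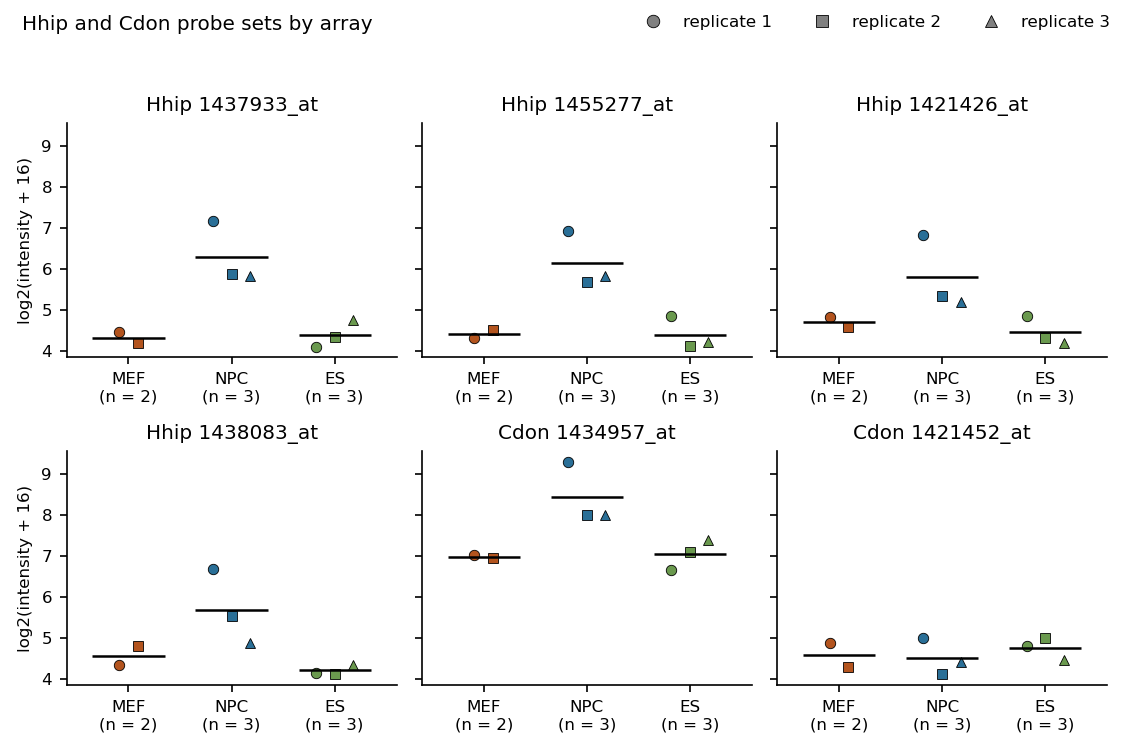
Level, as quantile normalized log2(intensity + 16), of the 4 Hhip and the 2 Cdon probe sets on each MEF, NPC and ES array, with 1 point per array and a line at the group mean. NPC 1 (circle) is the highest NPC array on every panel, by 1.31 over the mean of the other NPC arrays on Hhip 1437933_at and by 1.29 on Cdon 1434957_at.

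The 3 Gli genes encode the transcription factors at the end of the pathway and differed in direction. Gli1 acts as an activator and is the Gli gene most used as a readout of the pathway. It was at 4.88 and 5.11 on the MEF arrays, 5.07, 4.26 and 4.36 on the NPC arrays and 6.93, 6.55 and 6.85 on the ES arrays. The ES arrays lay above all others, and MEF and NPC arrays overlapped, between percentile 17.3 and 45.6 of the probe sets on their arrays. Gli1 was 4.63-fold lower in NPC than in ES cells (-2.21 ± 0.24, limma adjusted p = 5.17e-05) and 3.45-fold lower in MEF than in ES cells (-1.79 ± 0.26, limma adjusted p = 0.000426). MEF and NPC differed by 0.43 ± 0.26 (limma adjusted p = 0.256). These sizes too moved with the pseudocount. The NPC difference was -3.65 at a pseudocount of 1 and -1.14 at 64, and the MEF difference -2.50 and -0.99, the last of which was under the minimum. Gli1 has 1 probe set, so no other reading of it exists here.

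Gli2, the main activator of the family in the mouse embryo, was also highest in ES cells. It was at 7.89 and 7.73 on the MEF arrays, 6.65, 6.11 and 5.82 on the NPC arrays and 8.92, 8.94 and 9.01 on the ES arrays. The 3 groups did not overlap. Gli2 was 6.78-fold lower in NPC than in ES cells (-2.76 ± 0.19, limma adjusted p = 3.07e-06) and 3.07-fold higher in MEF than in NPC (1.62 ± 0.21, limma adjusted p = 0.000291). It was 2.21-fold lower in MEF than in ES cells (-1.14 ± 0.21, limma adjusted p = 0.00174), a call that ended with median centring (-0.66), at the deposited scaling (-0.34) and with a pseudocount of 64 (-0.99). Probe set 1446086_s_at gave -2.26 ± 0.15 for NPC and -1.57 ± 0.16 for MEF against ES cells. It gave 0.69 ± 0.16 for MEF against NPC, which was not called.

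Gli3, the main repressor of the family, ran the other way and was highest in MEF. It was at 8.71 and 8.84 on the MEF arrays, 7.83, 7.69 and 7.87 on the NPC arrays and 7.29, 7.28 and 7.43 on the ES arrays. The 3 groups did not overlap. Gli3 was 2.72-fold higher in MEF than in ES cells (1.44 ± 0.11, limma adjusted p = 7.64e-06). The differences of NPC from ES cells (0.46 ± 0.10, limma adjusted p = 0.00445) and of MEF from NPC (0.98 ± 0.11, limma adjusted p = 0.000131) were under the minimum of 1. The difference of MEF from NPC passed it in several alternatives, with median centring (1.53), at the deposited scaling (1.87) and without MEF 1 (1.05) among them. All 3 probe sets were called higher in MEF than in ES cells, by 1.01 to 1.44 on the log2 scale. On the dimmest, 1450525_at, NPC and ES arrays overlapped (0.14 ± 0.18), and MEF was called higher than NPC (1.02 ± 0.20).

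**Figure D3:**
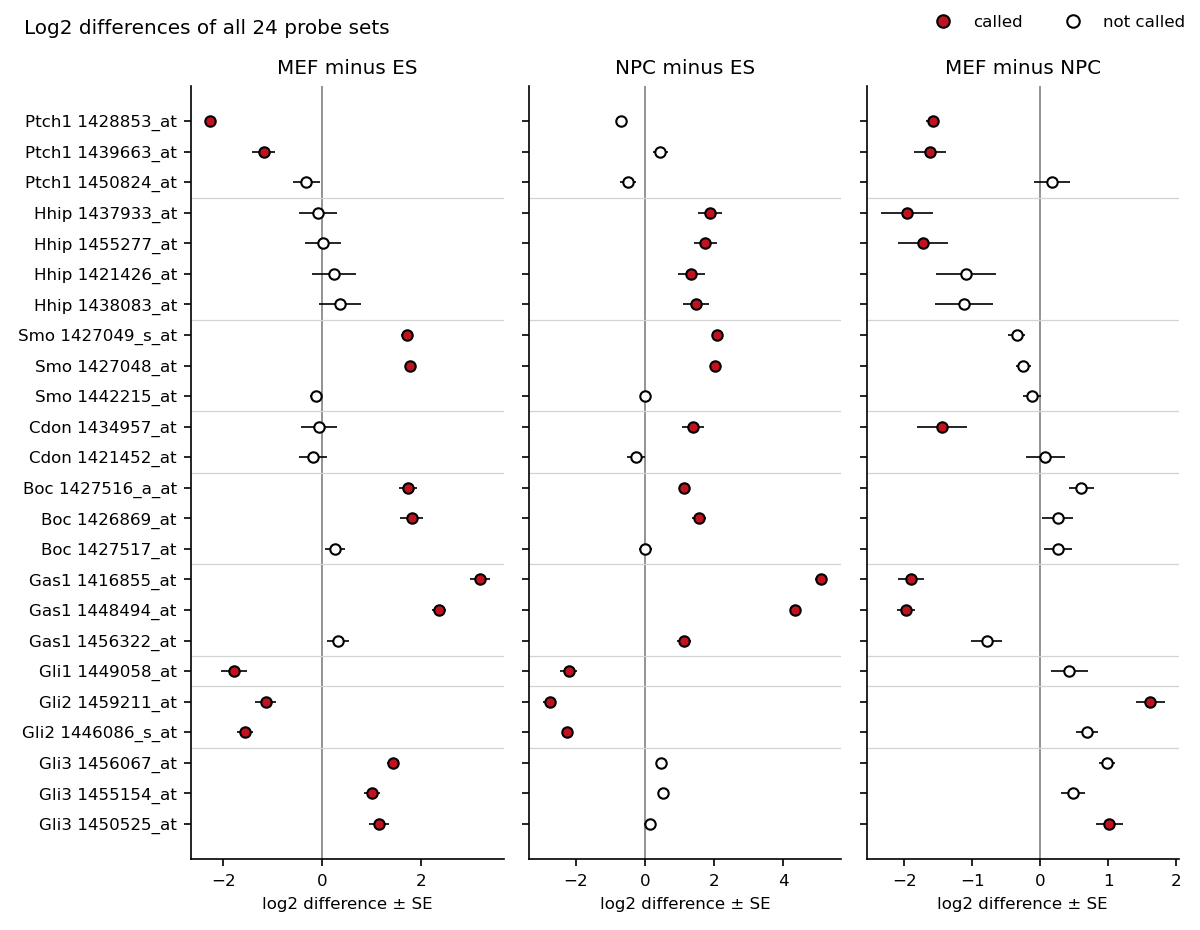
Log2 difference with its standard error for each of the 24 probe sets, in MEF minus ES, NPC minus ES and MEF minus NPC, filled where the probe set was called in the fit of all probe sets. In NPC minus ES, 12 probe sets are called higher and 3 lower, and the Gas1 probe set 1416855_at lies farthest right at 5.10.

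Read by probe set, 15 of 24 were called in NPC against ES cells (12 higher, 3 lower), where 17.9% of all probe sets were (8.99% higher and 8.86% lower). In MEF against ES cells 14 were called (9 higher, 5 lower), with 19.4% of all probe sets called (9.82% higher and 9.54% lower). In MEF against NPC 9 were called (2 higher, 7 lower), with 16.2% of all probe sets called (8.1% in each direction). At least 1 comparison was called for 20 of the 24. The share of all probe sets called in at least 1 comparison was not counted, so the 20 cannot be set against it. No gene had probe sets called in opposite directions in the same comparison. Probe sets of a gene are annotated to that gene and were read on the same arrays, so they are not independent of each other. Whether they read the same transcripts was not tested.

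The order of the cell types differed between the genes. Ptch1 ran ES, NPC, MEF from high to low, and Gli1 and Gli2 ran ES, MEF, NPC. Smo and Gas1 ran NPC, MEF, ES, and Hhip and Cdon ran NPC, ES, MEF. Boc and Gli3 ran MEF, NPC, ES. All neighbours in the order were called only for Gas1 and Gli2. The neighbours whose difference was not called were NPC and ES for Ptch1, MEF and ES for Hhip and Cdon, MEF and NPC for Smo, Boc and Gli1, and both neighbouring pairs for Gli3.

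The ligands lay low on the log2 scale in all 3 cell types, though Shh was around the middle of the probe sets on its arrays. Shh, which patterns the neural tube and limb, was at 4.90 and 5.38 in MEF, 4.95, 5.32 and 5.27 in NPC and 5.49, 5.09 and 5.38 in ES cells. Ihh and Dhh, the ligands of cartilage and of testis and nerve sheath, were between 4.14 and 5.43 on all 8 arrays. The arrays overlapped in every comparison, and 0 of the 3 ligands were called by limma in any of them. At an unadjusted p under 0.05 there was 1, Dhh in NPC against ES cells (-0.72, limma adjusted p = 0.0272). Of the 5 genes for ligand acylation, release and carriage, Hhat, the enzyme that adds palmitate to the ligand, was 2.63-fold higher in MEF than in ES cells (limma adjusted p = 0.00204) and 3.94-fold higher in MEF than in NPC (limma adjusted p = 0.000343). Disp1, which releases the lipid-bearing ligand, was 2.54-fold higher in MEF than in ES cells (limma adjusted p = 0.000148), but not when its probe sets were averaged (0.80). At a pseudocount of 64 neither Hhat nor Disp1 was called against ES cells (0.75 and 0.83), nor Hhat against NPC (0.95). Scube3, a secreted carrier of the family, was lower in NPC than in ES cells at the edge of the minimum (-1.0, limma adjusted p = 0.00334), and its call ended under 8 alternatives, among them leaving out NPC 1 (-0.88).

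Among the other surface proteins, 3 of 4 measured were called in NPC against ES cells, 2 lower and 1 higher. That is 75% of a list of only 4 genes, against 22.9% of all genes. Lrp2, an endocytic receptor that aids Shh uptake in the forebrain, was at 4.5 to 4.91 in NPC and 7.40 to 7.78 in ES cells, 7.08-fold lower (limma adjusted p = 1.68e-06). It was 4.13-fold lower in MEF than in ES cells (limma adjusted p = 2.86e-05). Gpc3, a glypican that competes with Patched1 for ligand, was 6.55-fold lower in NPC than in ES cells (limma adjusted p = 5.43e-05). It was 8.97-fold higher in MEF than in NPC (limma adjusted p = 6.42e-05). Gpc3 was at 4.43 to 5.04 in NPC, so that, as for Lrp2, the sizes against NPC depend on the pseudocount. Gpc6, another glypican, was 8.23-fold higher in MEF and 3.13-fold higher in NPC than in ES cells (limma adjusted p = 2.07e-06 and 4.54e-05). It was 2.63-fold higher in MEF than in NPC (limma adjusted p = 0.000389), but not when its probe sets were averaged (0.87).

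Of 8 measured regulators at the level of Smo, 3 were called in NPC against ES cells, 2 in MEF against ES cells and 3 in MEF against NPC. These are 37.5%, 25% and 37.5%, against 22.9%, 25% and 18.5% of all genes, and with 8 genes such counts do not set the list apart. Evc and Evc2, partners in a complex at the base of the cilium that relays the signal from Smo, were low in NPC. Evc was at 6.62 and 6.56 in MEF, 5.01, 4.32 and 4.24 in NPC and 6.52, 6.60 and 6.72 in ES cells. It was 4.26-fold lower in NPC than in ES cells (limma adjusted p = 4.15e-05) and 4.18-fold higher in MEF than in NPC (limma adjusted p = 0.000139). Evc2 was at 7.33 and 6.81 in MEF, 5.54, 4.25 and 4.24 in NPC and 6.86, 7.02 and 6.78 in ES cells. It was 4.63-fold lower in NPC than in ES cells (limma adjusted p = 0.000497) and 5.26-fold higher in MEF than in NPC (limma adjusted p = 0.00086). For both genes NPC 2 and NPC 3 lay near the least value of the scale, so the size of these folds depends on the pseudocount. Gpr161, a ciliary receptor that raises cyclic AMP and favours Gli repressors, was 5.02-fold higher in NPC and 3.41-fold higher in MEF than in ES cells (limma adjusted p = 5.43e-05 and 0.000651). Arrb2, an arrestin, was 2.11-fold lower in MEF than in ES cells and 2.38-fold lower than in NPC (limma adjusted p = 0.000155 and 8.8e-05), and both calls ended at a pseudocount of 64 (-0.84 and -0.98), without normalization (-0.35 and -0.45) and with median centring (-0.67 and -0.80).

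Sufu, which holds Gli proteins in the cytoplasm, and Kif7, the kinesin that places them at the cilium tip, were not called in any comparison. Sufu lay above ES cells by 0.46 in NPC and 0.54 in MEF (limma adjusted p = 0.0309 and 0.0254), under the minimum of 1. Of 13 Gli regulators, 3 were higher in NPC than in ES cells, 2 were higher in MEF than in ES cells and none was lower. That is 23.1% called in NPC and 15.4% in MEF, against 22.9% and 25% of all genes, so the list was not called more often than genes at large. Prkaca, the catalytic subunit of protein kinase A, which marks Gli proteins for processing, was above ES cells by 2.64-fold in NPC and by 2.35-fold in MEF (limma adjusted p = 0.000568 and 0.00248). Spop, an adaptor for Gli2 and Gli3 breakdown, was above ES cells by 2.75-fold in NPC and by 4.34-fold in MEF (limma adjusted p = 0.000348 and 6.89e-05). Gsk3b, a kinase that acts on Gli proteins after protein kinase A, was 2.83-fold higher in NPC (limma adjusted p = 7.96e-06). In MEF against NPC, limma called 0 of the 13, and 4 had an unadjusted p under 0.05. Among these, Gsk3b (-0.63, limma adjusted p = 0.00505) and Csnk1a1 (0.48, limma adjusted p = 0.0465) missed a call only by the minimum of 1.

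Of 13 genes of cilium transport and assembly, 2 were called in NPC against ES cells, 1 in MEF against ES cells and 2 in MEF against NPC. These are 15.4%, 7.69% and 15.4%, against 22.9%, 25% and 18.5% of all genes, and with 13 genes such counts do not set the list apart. The 2 in NPC were Kif3a, a motor subunit of transport into the cilium, at 2.12-fold higher and Ift52, a transport particle subunit, at 2.11-fold lower (limma adjusted p = 3.14e-05 and 9.57e-05), and both ended with a pseudocount of 64 (0.90 and -0.91). Ift140, of the particle that returns proteins from the cilium, was 2.58-fold lower in MEF than in ES cells and 2.72-fold lower than in NPC (limma adjusted p = 3.44e-05 and 3.64e-05). Neither call held with median centring (-0.96 and -0.99), nor without normalization (-0.64 for both). Rab23, a small GTPase that restrains the pathway in the mouse, was 2.61-fold higher in MEF than in NPC (limma adjusted p = 7.32e-06). With probe sets whose names end in _x_at, _s_at or _a_at left out, its difference was 0.68 on the log2 scale and its call ended.

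Known Gli target genes outside the 9 moved in both directions. Of 18, 9 were called in NPC against ES cells (7 higher, 2 lower), 11 in MEF against ES cells (8 higher, 3 lower) and 9 in MEF against NPC (5 higher, 4 lower). These are 50%, 61.1% and 50%, against 22.9%, 25% and 18.5% of all genes. Ccnd2, a D cyclin, was 28.1-fold higher in NPC and 29.7-fold higher in MEF than in ES cells (limma adjusted p = 3.08e-07 and 6.92e-07). Mycn, a Myc family factor, was 22.6-fold lower in NPC and 38.4-fold lower in MEF than in ES cells (limma adjusted p = 1.28e-08 and 1.7e-08), while an average over its probe sets gave -0.72 in NPC and was not called. Nkx2-2, a ventral neural tube factor, was at 4.12 and 4.04 in MEF, 6.56, 8.71 and 8.89 in NPC and 4.66, 4.17 and 4.03 in ES cells. It was 13.7-fold higher in NPC than in ES cells (limma adjusted p = 0.000328) and 15.8-fold lower in MEF than in NPC (limma adjusted p = 0.00068), with NPC 1 the lowest NPC array. As MEF and ES values of Nkx2-2 lay next to the least value of the scale, which the pseudocount sets at 4, the size of these folds depends on it. Olig2, of the motor neuron and oligodendrocyte lineage, was also among the NPC markers summed above, so the 2 readings are not separate. Olig2 was 12.4-fold higher in NPC than in ES cells and 142-fold lower in MEF than in NPC (limma adjusted p = 4.44e-07 and 3e-08). It was 11.5-fold lower in MEF than in ES cells (limma adjusted p = 1.3e-06). The Olig2 values in MEF, 4.35 and 4.18, also lay next to the least value, so that the sizes against MEF depend on the pseudocount. Ccnd1, another D cyclin, was 8.1-fold higher in NPC and 2.38-fold higher in MEF than in ES cells (limma adjusted p = 9.84e-09 and 3.65e-06). It was 3.4-fold lower in MEF than in NPC (limma adjusted p = 6.4e-07), with the call ending at the deposited scaling (-0.91).

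Other target genes were high in MEF. Snai1, a repressor of epithelial genes, was 11.3-fold higher in MEF than in ES cells and 16.5-fold higher than in NPC (limma adjusted p = 9.41e-07 and 5.49e-07). Hand2, a limb and heart factor, was 9.1-fold higher in MEF than in ES cells (limma adjusted p = 8.38e-05), and Osr1, of intermediate mesoderm and limb, was 7.67-fold higher in MEF than in NPC (limma adjusted p = 9.72e-06). Hand2 in ES cells (4.04 to 4.53) and Osr1 and Snai1 in NPC (4.13 to 4.71 and 4.33 to 4.83) lay near the least value of the scale. The size of the folds against these values depends on the pseudocount. Cdk6, a kinase partner of the D cyclins, was 5.12-fold higher in MEF than in NPC (limma adjusted p = 0.00102). Sfrp1, a Wnt antagonist, was 10.5-fold lower in NPC than in ES cells (limma adjusted p = 1.64e-06) and 2.39-fold lower in MEF (limma adjusted p = 0.00182), the second of which ended with median centring (-0.78) and without normalization (-0.46, limma adjusted p = 0.147). Together, 21 of 64 measured pathway genes outside the 9 were called in NPC against ES cells, 20 in MEF against ES cells and 17 in MEF against NPC, which is 32.8%, 31.2% and 26.6%, against the 22.9%, 25% and 18.5% of all genes given above.

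**Figure D4:**
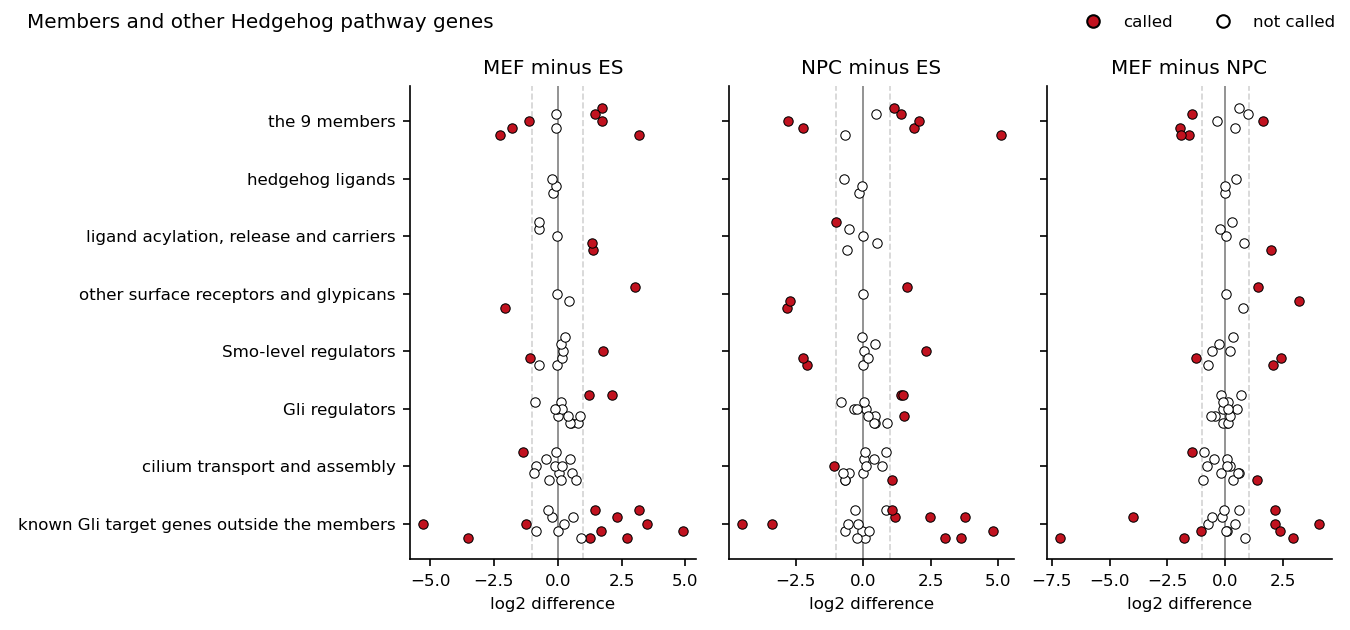
Log2 difference of the 9 genes and of 64 other pathway genes by group, in MEF minus ES, NPC minus ES and MEF minus NPC, with 1 point per gene, filled where called, and dashed lines at differences of -1 and 1. No ligand is called, and among the target genes Olig2 lies farthest left in MEF minus NPC at -7.15.

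Markers of other cells moved with some groups. Macrophage markers were called higher in MEF than in ES cells for 4 of 6 genes and lower for 1, and summed to intensities of 962 to 989 in MEF, 79.8 to 103 in NPC and 335 to 348 in ES cells. Among them Lyz2 was 15.8-fold higher in MEF than in ES cells and Cd68 2.49-fold lower (limma adjusted p = 2.87e-06 and 0.000427). Astrocyte markers summed to 68.1 to 72.7 in MEF, 150 to 255 in NPC and 82.1 to 99.4 in ES cells. Of these, 2 of 5, S100b and Slc1a2, were called higher in NPC than in ES cells, with Gfap, Aqp4 and Aldh1l1 not called. Aldh1l1 was lower in NPC than in ES cells, by less than the minimum of 1 (-0.79, limma adjusted p = 0.00288). Neuron markers summed to 795 to 825 in MEF, 1665 to 2397 in NPC and 3147 to 3253 in ES cells, with 2 of 6 higher and 2 lower in NPC against ES cells. Most of the sum came from Stmn2 in ES cells (11.40 to 11.45 on the log2 scale) and from Map2 in NPC (10.56 to 11.19), so it does not rank the groups by neuron transcripts. Oligodendrocyte markers summed to at most 113 and endothelial markers to at most 182 on any array. The part of these cells in the differences of the 9 genes was not tested.

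The genes whose levels ran closest to each of the 9 over the 8 arrays were found by the root mean square difference of values centred on the gene mean, which follows the same 3 groups of arrays for all genes. Def6 and S100a1 lay closest to Gli2, at 0.12 and 0.16 log2 units, and Kdm5b and Ckmt1 to Gli1, at 0.15 and 0.16. Copa and Glce lay closest to Gli3, at 0.08 and 0.09. Shmt1 and Bora lay closest to Ptch1, both at 0.11, Man2a2 and D830012I24Rik to Smo, at 0.10 and 0.11, and Mtmr6 and Lats1 to Boc, both at 0.14. Tmem176b and 2510009E07Rik lay closest to Gas1, at 0.29 and 0.31, Tnfrsf18 and 2810459M11Rik to Cdon, at 0.14 and 0.17, and E130307A14Rik and Scrn1 to Hhip, at 0.20 and 0.22. For Hhip, Cdon was the fifth closest of all genes, at 0.25, which was noticed after the values were seen.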

How the data were processed

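The values the authors deposited were linear intensity, 1 per probe set and array, made with GCOS 1.4 per the submitters' processing notes. How GCOS was set for background and scaling is not given in the sources used here, and no detection calls were used. Of 45101 probe sets, 64 controls were left out, and of the rest 34945 were listed with 1 gene in the platform annotation, 932 with several and 9160 with none. Values were turned into log2(intensity + 16), which understates folds of dim genes, and quantile normalized, since deposited medians and trimmed means differed between arrays. The number of arrays limits the precision.

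In R 4.3.3, limma 3.58.1 fitted all 8 arrays by group with a variance trend, over 18193 genes read from their brightest probe set and again over 45037 probe sets, with Benjamini-Hochberg adjustment over each whole table. Tested on simulated data, the fit called 94% of genes changed by 1.5 on the log2 scale in NPC against ES, 77% in MEF against ES and 84% in MEF against NPC. The 9 genes and the lists were chosen with earlier results of these data known. From each pathway list, up to 3 called genes in each direction and comparison were named, with the 2 nearest genes for each of the 9. Some listed genes were not analysed here. The alternatives were other scalings, pseudocounts of 1 and 64, a filter on dim genes, other choices of probe set, variance models, sample sets, thresholds, the replicate number as a term and leaving out each array. For the probe set counts they were added after seeing the data.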

Additional observations from a re-analysis of the deposited data

How the results depend on the processing

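Of 594 recomputed differences of the 9 genes (27 differences under 22 alternatives), 555 kept their direction and their side of the threshold, 17 lost their call, 12 gained one and 10 turned sign. No called difference turned sign. The sign turned for Cdon in MEF against ES with median centring (0.38), the deposited scaling (0.70), array weights (0.014) and without ES 3 (0.11, in a range of -0.25 to 0.11 over the arrays left out), for Hhip in MEF against ES at the deposited scaling (0.046), with the mean of probe sets (0.14) and without ES 3 (0.10) or MEF 2 (0.057), in a range of -0.22 to 0.10, and for Smo in MEF against NPC with median centring (0.23) and the deposited scaling (0.57). The cause was not tested. The deposited scaling shifted the median of all genes to 0.32 in MEF against ES and 0.43 in MEF against NPC, so that at this scaling a MEF difference is to be read from there. Of the genes called in MEF against ES, quantile normalization put 48.9% higher in MEF, median centring 65% and the deposited scaling 79.3%, and in MEF against NPC 56.9%, 74.1% and 87.5%. Of the 9 genes, 4 were higher and 2 lower in MEF against ES with either of these scalings, and in MEF against NPC 2 were higher and 3 lower with median centring and 3 higher and 2 lower at the deposited scaling. A pseudocount of 64 left 2626 called genes in NPC against ES, 2937 in MEF against ES and 2103 in MEF against NPC, against 4173, 4554 and 3359, and 8, 8 and 5 probe sets of the 9 genes. Under the alternatives, called probe sets were counted for the 9 genes alone, so no share of all probe sets stands beside such counts. No minimum difference gave 8530, 8447 and 7145 called genes, and the deposited scaling 5095 in MEF against NPC. With each array left out in turn, the called members ran from 6 to 7 in NPC against ES (6 without NPC 1), stayed at 7 in MEF against ES and ran from 4 to 6 in MEF against NPC. All called genes ran from 4092 to 4404, 4440 to 4604 and 3139 to 3576, and probe sets of the 9 genes from 12 to 15, 13 to 14 and 7 to 11. Where 1 MEF array was left, it was assumed to vary like the other groups. With the replicate block, 7, 7 and 6 of the 9 genes were called, against 7, 7 and 5, the added one being Gli3 (1.02). All called genes were then 4186, 4564 and 3357, against 4173, 4554 and 3359. Deviations of same-numbered arrays correlated at -0.02 to 0.04, within the range of differently numbered arrays (-0.04 to 0.04). The 2 MEF arrays deviate from their mean by equal and opposite amounts, so their correlations with any other array differ only in sign. This ties the 2 ranges to each other in part. No sign of pairing by replicate number was seen, but such correlations over all probe sets cannot exclude it. With detection calls not used and folds of dim genes understated, low values are uncertain in size. Among them are those of Hhip in MEF and ES, of Gli1 in MEF and NPC and of the ligands.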
